A study of Mus musculus with 12 samples.

Results

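Regions of the histone mark H3K9me3 were compared between brown adipose tissue (BAT) and white adipose tissue (WAT). Wild-type C57BL/6J mice were fed for 12 weeks, starting at 6 weeks of age, on standard chow (SCD) or on a diet high in fat (HFD), and their BAT and subcutaneous WAT were used for ChIP-seq of H3K9me2 and H3K9me3. The series holds 12 libraries, 4 of them inputs, with 1 library for each tissue, diet and mark, so the 4 H3K9me3 lists of peaks are SCD BAT, HFD BAT, SCD WAT and HFD WAT. How many animals entered a library is not stated in the sources used here. Peaks with a score of 50 or more on the 19 autosomes were joined across the lists where they overlapped by at least 1 bp, which gave 65435 regions. A region was called brown-specific when both BAT lists and neither WAT list had a peak in it, white-specific in the opposite case, and shared when all 4 lists had one. By this rule 7465 regions were brown-specific (11.4% of the 65435), 588 were white-specific (0.899%) and 2382 were shared (3.64%), which makes 10435 regions in all.

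H3K9me3 is laid down by enzymes such as Setdb1 and Suv39h1 and is bound by HP1 proteins, and it is best known from compact, silent chromatin. Its usual places are satellite and retrotransposon repeats, clusters of KRAB zinc-finger genes, imprinted genes and lineage genes that a cell type does not use. BAT burns fat to make heat through the uncoupling protein Ucp1, whereas WAT stores fat as triglyceride. The lists hold positions and scores of peaks and no expression values, so the tissue labels were not tested against marker genes. The paper's methods pair the name H3K9me2 with an antibody described as against the tri-methyl form and the name H3K9me3 with one described as against the di-methyl form. Both marks keep their label names here, and which description is right was not tested.

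The 4 lists were unequal, and this bears on every count below. On the autosomes the SCD BAT list had 25126 peaks with a score of 50 or more, the HFD BAT list 50303, the SCD WAT list 7531 and the HFD WAT list 27682. The score was taken to be the p-value of a peak as a negative log10, multiplied by 10, and it is not scaled between libraries. The depth of the libraries is not known from the lists, so a missing peak means that none was detected at the depth of that library. When the 7531 highest-scoring peaks of each list were taken, 68.5% of the SCD BAT peaks overlapped an HFD BAT peak, but 27.6% of the SCD WAT peaks overlapped an HFD WAT peak. The HFD WAT peaks overlapped SCD BAT peaks in 48.7% and SCD WAT peaks in 26.96%. The HFD WAT list therefore had more peaks in common with either BAT list than with the other WAT list, and the white-specific class rests on the small agreement of 2 lists that stood apart. Tissue was not tested, because with 2 lists per tissue the smallest two-sided p of an exact permutation test is 0.333, and 95% confidence intervals are exact binomial ones that cover counting error only.

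The usual places of H3K9me3 were held in part by these lists. A peak in at least 1 list lay within 3 kb of a start site, here called the promoter, in 65.4% of all 21418 autosomal protein-coding genes. It did so in all 26 imprinted genes and in 96.4% of 28 genes of positional identity, but also in 13 of 14 housekeeping genes. The share was 60.4% for 389 zinc-finger genes named Zfp, close to that of genes in general, and 6.33% for 1106 olfactory receptor genes. Of all 65435 regions, 39.5% consisted for at least 50% of repeated sequence, as measured further on.

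Stretches of DNA from the regions with the highest scores are given as examples of each class, and they need not be typical of it. Each is 300 bases about the middle of a region, read from the plus strand of mm9, with CpG dinucleotides in capitals. The first pair is from the brown-specific promoter regions whose lower BAT score was highest, at Atp2b1 (chr10:98377414-98377713) and at Zfp319 and AA960436 (chr8:97852442-97852741).
Atp2b1, brown-specific: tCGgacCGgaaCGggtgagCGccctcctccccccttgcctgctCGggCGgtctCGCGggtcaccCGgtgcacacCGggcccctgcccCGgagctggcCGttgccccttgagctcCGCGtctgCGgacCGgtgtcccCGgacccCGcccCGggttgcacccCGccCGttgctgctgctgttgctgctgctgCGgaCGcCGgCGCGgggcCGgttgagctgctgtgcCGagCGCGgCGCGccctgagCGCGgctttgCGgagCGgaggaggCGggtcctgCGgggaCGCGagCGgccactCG
Zfp319 and AA960436, brown-specific: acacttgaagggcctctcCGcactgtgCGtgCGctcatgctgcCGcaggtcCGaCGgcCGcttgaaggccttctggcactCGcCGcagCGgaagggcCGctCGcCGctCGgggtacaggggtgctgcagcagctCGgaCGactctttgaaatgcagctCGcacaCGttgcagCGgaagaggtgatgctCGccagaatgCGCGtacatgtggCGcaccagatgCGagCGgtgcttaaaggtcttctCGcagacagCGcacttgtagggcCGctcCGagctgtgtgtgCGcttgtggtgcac
The next pair is from the white-specific promoter regions chosen in the same way, at Gm1840 (chr8:5640200-5640499) and Robo2 (chr16:74411991-74412290). A further stretch is from the white-specific region with the highest lower score outside promoters (chr6:145733609-145733908). It lies in an intron, 21426 bp from the nearest start site, that of Rassf8, whose name labels it below. The stretch was added after its values were seen, because most white-specific regions lay outside promoters.
Gm1840, white-specific: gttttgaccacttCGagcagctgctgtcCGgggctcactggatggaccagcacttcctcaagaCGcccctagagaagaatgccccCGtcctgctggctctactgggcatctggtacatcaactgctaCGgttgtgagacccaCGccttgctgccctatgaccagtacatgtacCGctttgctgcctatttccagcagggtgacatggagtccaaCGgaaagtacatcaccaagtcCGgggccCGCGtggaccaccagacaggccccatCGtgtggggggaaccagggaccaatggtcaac
Robo2, white-specific: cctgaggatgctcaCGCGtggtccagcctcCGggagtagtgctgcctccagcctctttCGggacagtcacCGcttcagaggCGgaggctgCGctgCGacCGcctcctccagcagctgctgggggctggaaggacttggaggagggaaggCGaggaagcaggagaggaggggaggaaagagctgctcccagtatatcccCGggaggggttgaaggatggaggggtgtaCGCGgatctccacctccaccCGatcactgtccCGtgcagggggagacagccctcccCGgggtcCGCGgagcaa
Rassf8 intron, white-specific: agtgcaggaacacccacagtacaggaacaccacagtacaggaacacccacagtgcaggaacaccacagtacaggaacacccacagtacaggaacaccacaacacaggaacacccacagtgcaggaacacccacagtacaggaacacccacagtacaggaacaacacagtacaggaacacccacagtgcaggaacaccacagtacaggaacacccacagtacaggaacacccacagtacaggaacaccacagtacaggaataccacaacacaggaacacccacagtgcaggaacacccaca
The last pair is from the shared promoter regions, at Muc19 (chr15:91738721-91739020) and Flg (chr3:93091622-93091921).
Muc19, shared: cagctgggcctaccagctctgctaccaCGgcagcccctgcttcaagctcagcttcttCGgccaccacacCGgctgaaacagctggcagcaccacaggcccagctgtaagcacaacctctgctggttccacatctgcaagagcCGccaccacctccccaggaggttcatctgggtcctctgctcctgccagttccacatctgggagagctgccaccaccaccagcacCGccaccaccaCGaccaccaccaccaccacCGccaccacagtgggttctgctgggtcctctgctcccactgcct
Flg, shared: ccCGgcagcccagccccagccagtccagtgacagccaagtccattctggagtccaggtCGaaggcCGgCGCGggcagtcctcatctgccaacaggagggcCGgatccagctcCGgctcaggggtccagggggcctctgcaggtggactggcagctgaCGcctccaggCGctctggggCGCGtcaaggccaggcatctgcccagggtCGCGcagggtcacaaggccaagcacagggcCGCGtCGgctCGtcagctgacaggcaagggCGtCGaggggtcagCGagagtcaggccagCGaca
The Atp2b1 stretch has 42 CpG and a GC content of 77%, and the Zfp319 stretch has 30 CpG. The Gm1840 and Robo2 stretches have 12 and 18 CpG. The Rassf8 stretch has no CpG and is built from a short unit that returns along its whole length. The Muc19 and Flg stretches have 7 and 21 CpG and lie in genes for long secreted or structural proteins of epithelia, a mucin and filaggrin.

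Brown-specific regions were mostly at promoters. A start site lay within 3 kb of 4792 of the 7465 brown-specific regions (64.2%, 95% confidence interval 63.1 to 65.3), of 44 of the 588 white-specific regions (7.48%, 5.49 to 9.92) and of 856 of the 2382 shared regions (35.9%, 34.0 to 37.9). The share was 27.2% over all 65435 regions, and 8.03% of autosomal bases lie that close to a start site. Brown-specific regions were thus at promoters more often than regions in general, and white-specific regions less often than regions in general. The start site itself was covered by 56.0% of brown-specific, 3.06% of white-specific and 28.4% of shared regions. Conversely, 21.6% of brown-specific regions were intergenic, against 68.0% of white-specific and 44.7% of shared regions. Introns outside promoters held 8.69%, 21.6% and 16.5% of the 3 classes. The median distance from a start site was 0 bp for brown-specific regions, 46616.5 bp for white-specific regions and 15158 bp for shared regions.

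**Figure D1:**
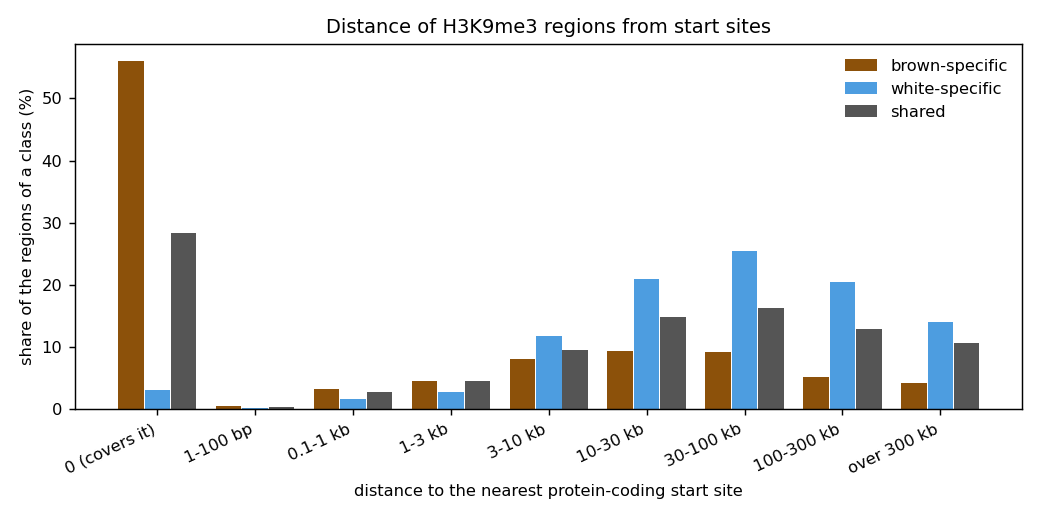
Distance from an H3K9me3 region to the nearest protein-coding start site (x axis, in bins) against the share of the regions of a class in each bin (y axis, %). Bars are brown-specific (7465), white-specific (588) and shared (2382) regions. Of the brown-specific regions 56.0% cover a start site, whereas the white-specific bars are highest between 10 and 300 kb.

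Of the 15 possible combinations of lists, the most frequent was a peak in the HFD BAT list alone, with 24035 regions. Next came a peak in both BAT lists and the HFD WAT list, with 10752 regions, which the rule leaves out of all 3 classes. There the median HFD WAT score was 92.4, and it was below 60 in 1553 regions. Both BAT lists and the SCD WAT list alone had a peak in 424 regions. Of the 10752 regions 48.7% were at promoters, and of the 424 regions 43.9%. Both shares were below the 64.2% of brown-specific regions and above the 27.2% of all regions. Regions of the HFD BAT list alone also differed in sequence from the others, as described further on.

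**Figure D2:**
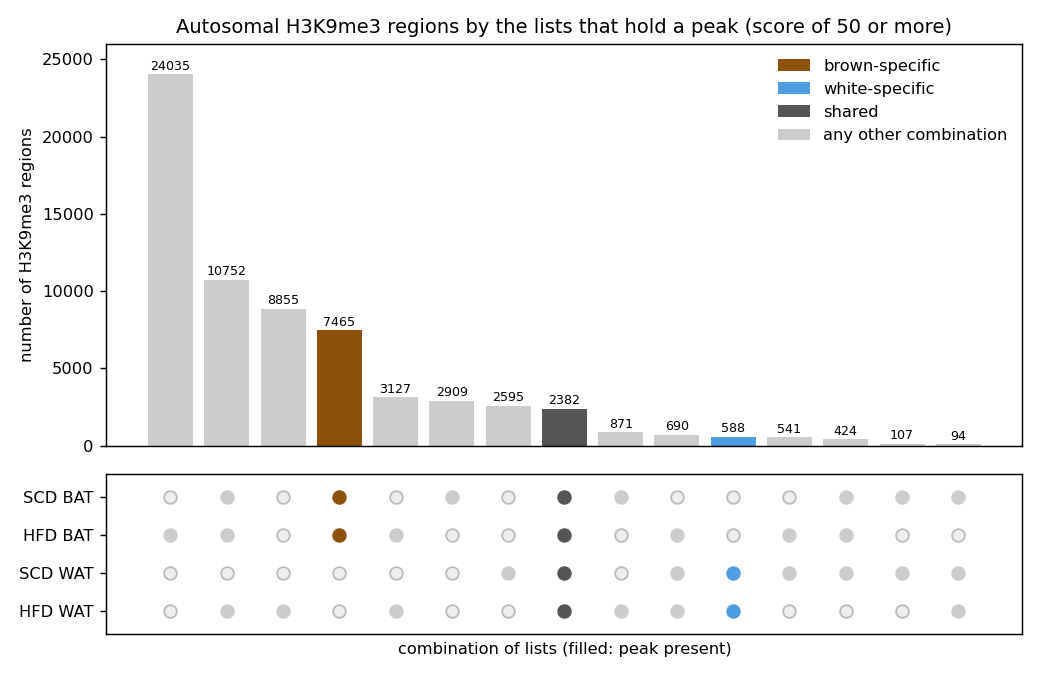
Number of autosomal H3K9me3 regions (y axis) for each combination of the 4 lists that have a peak (x axis, with filled circles for a peak). The combination of the HFD BAT list alone is the most frequent with 24035 regions, and the brown-specific, shared and white-specific combinations hold 7465, 2382 and 588.

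The count of each class follows from the score that was required. Of the brown-specific regions, 795 had a peak in the SCD WAT list with a deposited score of 30 to 50, the highest of 49.96, which is just below the minimum. The 424 regions with both BAT lists and the SCD WAT list had SCD WAT scores from 50 upward. The lowest scores that made a region white-specific were 50.04 in the SCD WAT list and 50.02 in the HFD WAT list. With 7531 peaks from each list, 2157 regions were brown-specific, 750 white-specific and 921 shared. The promoter share was then 87.7% (86.2 to 89.0) for brown-specific, 17.6% (14.9 to 20.5) for white-specific and 37.1% (34.0 to 40.3) for shared regions, and the white-specific share was thus above its 7.48% at a score of 50. The order of the 3 classes by promoter share was thus kept at equal numbers, while the 12.7-fold excess in number of brown-specific over white-specific regions became 2.88-fold.

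The regions of the 3 classes differed in width less than in position. Median width was 944 bp for brown-specific (quartiles 787 to 1181), 994.5 bp for white-specific (816 to 1358) and 1342 bp for shared regions (1051 to 1737). A width of 2 kb or more was reached by 2.24% of brown-specific, 7.65% of white-specific and 14.7% of shared regions. Joining widens a region that more lists enter, so the widths of single peaks were also taken. Peaks of the SCD BAT list were 905 bp wide at the median in brown-specific and 1142 bp in shared regions, and peaks of the HFD WAT list were 863.5 bp wide in white-specific and 1143 bp in shared regions. Shared regions thus also had the wider single peaks in these lists.

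The 3 widest brown-specific regions were all intergenic. The widest, of 16711 bp at chr6:47602716-47619426, lay 57376 bp from the start site of Ezh2, the methyltransferase for H3K27, and 91.7% of its sampled 24-base words were found 10 or more times in the autosomes. Its score was 304 in the SCD BAT list and 803 in the HFD BAT list, and it also had an H3K9me2 peak in the HFD WAT list alone, of score 559. The widest white-specific region, of 7569 bp at chr4:146718938-146726506, lay 8906 bp from Gm13145, with scores of 820.5 in the SCD WAT list and 72.7 in the HFD WAT list. Next to each other on chromosome 17 were the other 2, of 5375 and 5356 bp, about 20559 and 15194 bp from Gm9880. The widest shared region, of 17245 bp, began within 3 kb of Fcgr3, an Fc receptor of myeloid cells, with scores of 2231, 3100, 59.4 and 1102 in the SCD BAT, HFD BAT, SCD WAT and HFD WAT lists. Its SCD WAT score was close to the minimum of 50, so the widest shared region was near to being left out of the class.

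Brown-specific regions were richer in GC and CpG than white-specific regions. Median GC content was 61.0% in brown-specific, 52.3% in white-specific and 58.5% in shared regions. It was 55.1% over all 65435 regions, and 41.9% of autosomal bases are G or C. The observed to expected ratio of CpG had a median of 0.667, 0.235 and 0.554, against 0.346 over all regions. White-specific regions still had a median of 1.55 CpG per 100 bp, above the 0.851 of the autosomes. A GC content of at least 50% with a ratio of at least 0.6, a common description of a CpG island, was met by 58.7% of brown-specific, 3.06% of white-specific and 35.8% of shared regions. Part of the difference went with position. Outside promoters the median ratio was 0.457 in 2673 brown-specific, 0.230 in 544 white-specific and 0.524 in 1526 shared regions. At promoters it was 0.752, 0.291 and 0.657, so the ratio was lowest in white-specific regions in both positions. At equal numbers of peaks the medians of the ratio were 0.798, 0.436 and 0.573.

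Brown-specific regions held less repeated sequence than the other classes and than regions in general. The share of sampled 24-base words that occur 10 or more times in the autosomes had a median of 0% in brown-specific, 36.3% in white-specific and 15.4% in shared regions. Words of this kind made up at least 50% of the words in 15.1% of brown-specific, 41.8% of white-specific and 36.6% of shared regions, against 39.5% of all 65435 regions. No such word was found in 67.4% of brown-specific, 19.2% of white-specific and 32.6% of shared regions. Part of this difference also went with position. At promoters the median share of repeated words was 0% in brown-specific, 2.63% in white-specific and 0% in shared regions. Outside promoters it was 12.1%, 41.5% and 59.5%, so shared regions had the highest median there. For comparison, the 24035 regions of the HFD BAT list alone had a median of 90.9% and a GC content of 43.6%. The 10752 regions with a peak in both BAT lists and the HFD WAT list had a median of 1.30% and a GC content of 59.8%. In the 424 regions of both BAT lists and the SCD WAT list these values were 0% and 58.2%. A low share of repeated words was thus not particular to brown-specific regions. The authors removed reads that map to several places, so repeated sequence is measured less well than the rest, and how far that moved the classes was not tested.

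**Figure D3:**
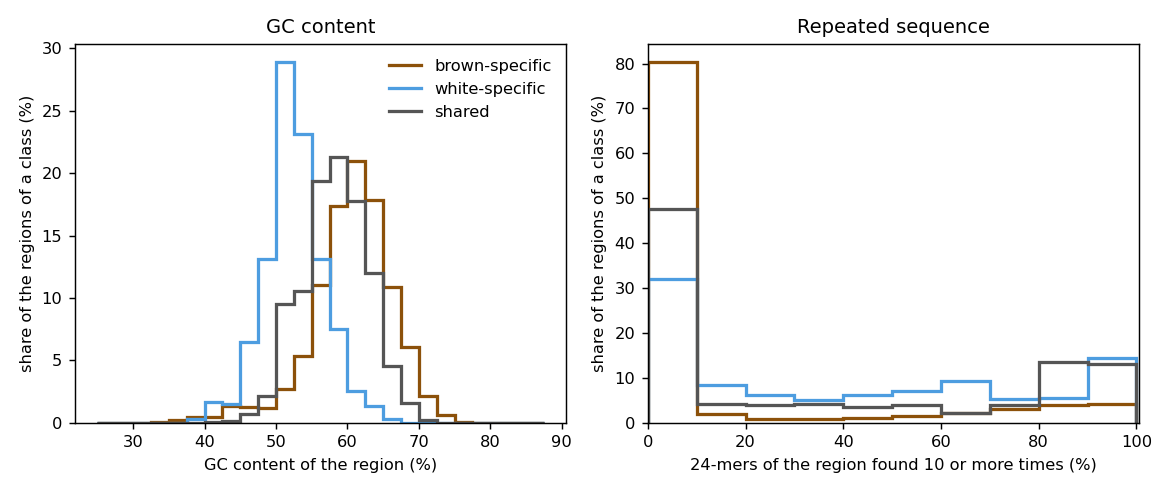
Share of the regions of a class (y axes, %) by GC content (left x axis, %) and by the share of sampled 24-base words found 10 or more times in the autosomes (right x axis, %). The median GC content is 61.0% for brown-specific, 52.3% for white-specific and 58.5% for shared regions, and the leftmost bin of the right panel is highest for brown-specific regions.

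H3K9me2 peaks were not used to choose the regions. They were found most often in shared regions, of which 88.0% had one in the SCD BAT list, 92.1% in the HFD BAT list, 94.5% in the SCD WAT list and 76.0% in the HFD WAT list. In brown-specific regions the shares were 61.2%, 49.6%, 53.2% and 46.5% in the same order, so H3K9me2 was not limited to the tissue that had the H3K9me3 peaks. In white-specific regions they were 19.4% (16.3 to 22.8), 58.0% (53.9 to 62.0), 30.4% (26.7 to 34.3) and 2.38% (1.31 to 3.96). White-specific H3K9me3 regions therefore had an H3K9me2 peak most often in a brown list, that of HFD BAT, and least often in the HFD WAT list, one of the lists that define them. With equal numbers of peaks for both marks, the shares in 750 white-specific regions were 20.7%, 40.8%, 42.1% and 11.5%, so the HFD WAT list again had the smallest share, while the HFD BAT and SCD WAT lists were alike. The H3K9me2 lists held 23626, 42401, 20904 and 20790 autosomal peaks, and over all H3K9me3 regions their shares were 30.8%, 40.8%, 28.8% and 26.4%. An H3K9me2 peak in both WAT lists and neither BAT list was found in 2 of the 588 white-specific regions, and one in both BAT lists and neither WAT list in 563 of the 7465 brown-specific regions. These are 0.340% and 7.54%, and over all regions the same H3K9me2 patterns made up 1.25% and 4.43%. No H3K9me2 peak in any list was found at 12.4% of brown-specific, 30.3% of white-specific and 0.672% of shared regions, against 42.0% of all regions.

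**Figure D4:**
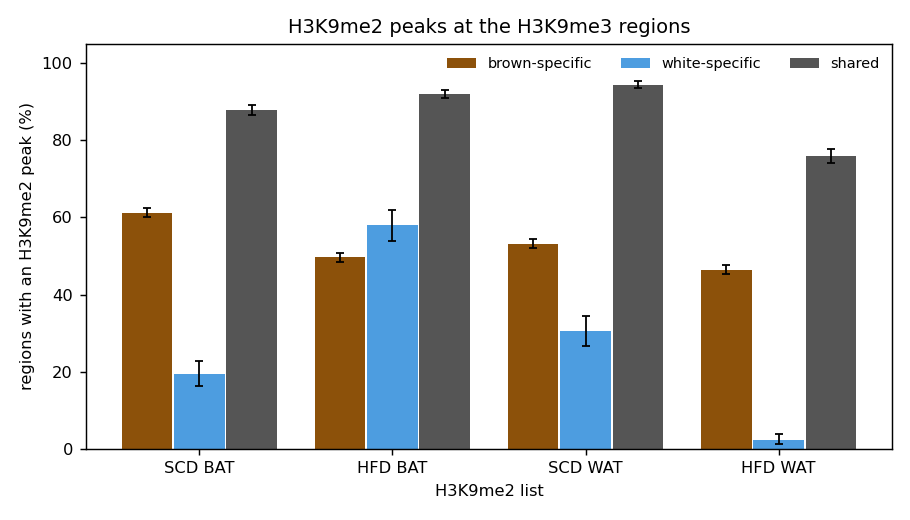
Share of the H3K9me3 regions of a class with an H3K9me2 peak of score 50 or more (y axis, %) in each of the 4 H3K9me2 lists (x axis). Error bars are exact binomial 95% confidence intervals. White-specific regions reach 58.0% in the HFD BAT list and 2.38% in the HFD WAT list.

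Along the genome, brown-specific regions were densest on chromosome 11, with 607 regions or 4.98 per Mb, followed by chromosome 7 with 3.93 per Mb. These chromosomes also carry the most protein-coding genes per Mb, 13.6 on each. White-specific regions were densest on chromosome 4, with 65 regions or 0.418 per Mb, where the gene density was 8.71 per Mb. Shared regions were densest on chromosome 12, at 1.34 per Mb, which has 5.81 genes per Mb. Chromosome 7 came second for both classes, at 0.361 and 1.29 per Mb.

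The windows of 1 Mb with the most brown-specific regions lay side by side on chromosome 10, with 50 regions between 80 and 81 Mb and 37 between 79 and 80 Mb. They are crowded with genes, 60 and 59 protein-coding ones, such as Eef2, which encodes a translation elongation factor, and Dot1l, the methyltransferase gene for H3K79, in the first, and Gpx4 and Polr2e in the second. The same windows held 3 and 6 shared regions and 1 and 0 white-specific regions. The windows with the most white-specific regions lay side by side on chromosome 4, with 15 regions between 146 and 147 Mb and 10 between 145 and 146 Mb. The first holds 10 protein-coding genes, among them Zfp600 and Gm13145, and the second holds 8, among them Rex2 and 2610036A22Rik. Shared regions were also frequent there, with 11 in each window, against 2 and 1 brown-specific regions. This stretch was thus marked in both tissues and cannot be called a white locus.

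Shared regions were most frequent on chromosome 18 between 37 and 38 Mb, with 29 regions. This window holds the protocadherin clusters, whose genes encode adhesion proteins that give single neurons an identity. On chromosome 11 between 99 and 100 Mb, 22 shared regions lay among the keratin and keratin-associated protein genes, which are used in skin and hair. Brown-specific regions in these windows numbered 9 and 4, and white-specific regions 1 and 0.

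Promoters were then read gene by gene. A gene was called brown-only when both BAT lists and neither WAT list had a peak within 3 kb of any of its start sites. Of the 21418 genes, 4113 were brown-only (19.2%), 35 were white-only (0.163%) and 1051 had a peak in all 4 lists (4.91%). With equal numbers of peaks 1998 genes were brown-only (9.33%), 131 white-only (0.612%) and 415 in all 4 lists (1.94%). The brown-only genes by the 2 ways of choosing peaks had 753 genes in common, which is 18.3% of the first list and 37.7% of the second. The white-only genes had 4 in common, 11.4% and 3.05% of the lists, and all 415 genes with peaks in every list were also among the 1051. Which genes were brown-only or white-only thus depended on how peaks were chosen, and brown-only genes outnumbered white-only genes in both readings. Of the brown-specific promoter regions 752 touched more than 1 gene, so neighbours can share a peak.

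The brown-specific promoter with the highest lower score was that of Atp2b1, which encodes a calcium pump of the plasma membrane, at chr10:98376432-98378696, with 1362 in the SCD BAT list and 1259 in the HFD BAT list and no peak in either WAT list. At Zfp319 and AA960436 the scores were 1172 and 1324, and 2 gene entries named Zfp319 share this peak. At 8430427H17Rik they were 1371 and 1161, and at Gpr27, an orphan receptor gene, 1474 and 1136. Chromatin genes were among the next, with 1068 and 1027 at Arid1b, a subunit of the BAF remodelling complex, 988 and 1169 at the transcription factor gene Yy1, and 926 and 1454 at Phf13. Sgpl1, whose product degrades sphingosine-1-phosphate, had 1013 and 923. All 8 regions were between 2196 and 3400 bp wide, and all 8 had an H3K9me2 peak in both WAT lists, with scores between 128 and 458. These promoters therefore lacked H3K9me3 peaks in WAT but not H3K9me2 peaks. Outside promoters the regions with the highest lower scores lay 29482 bp from Pcgf5, 4845 bp from Pura (in an intron) and 13916 bp from Tet3. Their SCD BAT scores were 1066, 723 and 696. The one near Tet3 had a SCD WAT peak of 39.8, under the minimum of 50.

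White-specific promoter regions had far lower scores. Gm1840 at chr8:5639409-5641290 had 289 in the SCD WAT list and 217 in the HFD WAT list, and Robo2, which encodes an axon guidance receptor, had 93.95 and 128. The region near Dapk3 and 4930442H23Rik had 83.8 and 95.3, that near the replication factor gene Mcm10 90.8 and 79.3, and that near Cdkl3 90.6 and 77.8. At 2610036A22Rik the scores were 79.99 and 77.7, at Epha4, an ephrin receptor gene, 77.3 and 88.6, and at Gm17684 96.1 and 76.4. Of these 8 regions all but the first, at Gm1840, had lower scores under 100. The 8 brown-specific ones had 923 or more, and these scores come from different libraries. Dapk3, 4930442H23Rik and Cdkl3 were not white-only genes, since an HFD BAT peak outside these regions lay within 3 kb of one of their start sites. Outside promoters the highest lower scores were 224 in the intronic region nearest to Rassf8, 211 at 1285005 bp from Pcdh7 and 205 at 401029 bp from Epha3. In these regions, in the same order, 69.6%, 96.2% and 63.0% of the sampled words were repeated ones.

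Among the 35 white-only genes 4 were also white-only at equal numbers, Gm1840, Robo2, 2610036A22Rik and Gm11273. Others, named after their values were seen, were Mmp9, a matrix protease gene with scores of 57.2 in the SCD WAT list and 62.2 in the HFD WAT list, Mt3, a metallothionein gene with 60.3 and 61.1, and Ehd2, a gene of caveolae with 52.4 and 53.0. These lay close to the minimum of 50 in both lists. Slc4a5, a bicarbonate transporter gene, had 216 and 71.5, and Rpsa-ps10, which is named as a pseudogene, had 542 and 70.6.

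The shared promoter regions with the highest lowest score lay at genes of epithelia, of neurons and of imprinted loci, among others. Muc19 had 3100, 3100, 545 and 2755 in the SCD BAT, HFD BAT, SCD WAT and HFD WAT lists, and Flg had 3100, 3100, 357 and 1570. Magel2, a paternally expressed imprinted gene, had 528, 863, 389 and 350. Elavl2, which encodes a neuronal RNA-binding protein, had 995, 1172, 430 and 340, Mdga2 378, 1142, 318 and 382, and Dlgap1, a postsynaptic scaffold gene, 912, 750, 269 and 250. Fam84a had 396, 639, 219 and 238, and March11, a ubiquitin ligase gene, 877, 802, 211 and 295. All 8 regions also had an H3K9me2 peak in every list, with scores from 162 to 3100. In shared regions as a whole the median score was 278, 374, 74.96 and 138 in the 4 lists, so the SCD WAT peaks of shared regions were typically near the minimum.

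Of the well known genes of the brown programme, Ucp1, Cidea, Ppargc1a, Dio2 and Ebf2 fell into no class, while Prdm16, Zic1 and Lhx8 did. Of 38 genes of brown adipocytes and thermogenesis, 8 were brown-only (21.1%, against 19.2% of all genes), 0 were white-only (against 0.163% of all genes) and 3 had a peak in all 4 lists. Ucp1 had a promoter peak in the HFD BAT list of 129 and in the HFD WAT list of 59.6. Cidea, a lipid droplet protein gene, had one in the HFD BAT list alone, of 132. Ppargc1a, a coactivator of mitochondrial genes, and Dio2, the deiodinase that makes active thyroid hormone, had none in any list. Ebf2, a transcription factor gene of brown precursors, had 59.5 in the HFD BAT list and 59.96 in the HFD WAT list. The peaks at Ucp1, Cidea and Ebf2 were thus found on HFD alone.

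The 3 genes of this list with a peak in all 4 lists (7.89%, against 4.91% of all genes) were transcription factor genes. Prdm16, which drives the brown fate, had 418, 848, 78.2 and 168 in the SCD BAT, HFD BAT, SCD WAT and HFD WAT lists. Zic1 had 143, 593, 117 and 342, and Lhx8 had 361, 359, 50.4 and 114. In bulk tissue, more cells of a type that carries the mark and more of the mark per cell cannot be told apart.

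The brown-only members of the same list were Otop1 with 400 in the SCD BAT list and 536 in the HFD BAT list, Ppargc1b with 370 and 728, Ehmt1 with 319 and 467, Letmd1 with 257 and 271, Esrra with 172 and 260 and Nr4a1 with 101.4 and 211, beside 2 more. Ppargc1b and Esrra work together on mitochondrial genes, and Ehmt1 encodes an H3K9 methyltransferase. At equal numbers of peaks 9 of the 38 were brown-only (23.7%, against 9.33% of all genes), in part other genes. Of the members named above, Otop1, Ppargc1b and Ehmt1 were brown-only in that reading too, and Letmd1, Esrra and Nr4a1 were not. Several of these genes are expressed in BAT, and the peaks do not say whether they were.

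Genes of white adipocytes were brown-only in 3 of 28 cases (10.7%, against 19.2% of all genes). They were Nrip1, a corepressor gene, with 1012 and 709, Cebpb, a transcription factor gene of early adipogenesis, with 410 and 834, and Rbp4, a retinol carrier gene, with 278 and 216. At equal numbers of peaks 3 of the 28 were again brown-only, Rbp4 not among them. That share of 10.7% was close to the 9.33% of all genes. Slc7a10, an amino acid transporter gene of the list, was the 1 gene with a peak in all 4 lists (3.57%, against 4.91%), with 200, 655, 52.9 and 175. Adipoq, Lep and Fabp4, the genes of adiponectin, leptin and a fatty acid carrier, had no promoter peak in any list. Pparg, the main regulator of fat cells, had 162 in the SCD BAT list, 156 in the HFD BAT list and 67.8 in the HFD WAT list.

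Lipid metabolism genes were brown-only more often than genes in general at a score of 50. Among 28 of them 10 were brown-only (35.7%, against 19.2%), 0 white-only and 0 in all 4 lists. Acaca, the enzyme for the first step of fatty acid synthesis, had 385 in the SCD BAT list and 384 in the HFD BAT list, Elovl6, an elongase gene, 293 and 301, and Me1, the malic enzyme gene, 456 and 210. Cpt2 and Acadm, of fatty acid oxidation, had 112 and 119 and 109 and 97.6, and Srebf1, the regulator of lipid synthesis, had 106 and 175. At equal numbers of peaks 3 of the 28 were brown-only (10.7%), close to the 9.33% of all genes, so the excess was not seen in that reading.

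The enzymes and readers of H3K9 methylation had brown-only promoters in 9 of 28 gene entries (32.1%, against 19.2% of all genes), and at equal numbers in 6 (21.4%, against 9.33%). Setdb1, which writes H3K9me3, had 216 in the SCD BAT list and 183 in the HFD BAT list. Cbx3, an HP1 protein gene, had 356 and 312. The demethylase genes Jmjd1c, Kdm3a and Phf2 had 490 and 281, 155 and 231, and 254 and 206. None of these named genes was brown-only at equal numbers, whereas Ehmt1 was. Mecom had a peak in all 4 lists, with 422, 499.6, 52.4 and 225. Housekeeping genes were brown-only in 4 of 14 cases (28.6%, against the same 19.2%), with Tfrc at 242 and 317, Sdha at 160 and 168, Rplp0 at 114 and 201 and Rpl13a at 124 and 55.3, and 0 were at equal numbers.

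Among larger families, 26 of 67 replication-dependent histone genes were brown-only (38.8%), most of them in the cluster on chromosome 13, where neighbours share a peak. Hist1h2ag, Hist1h2bj and Hist1h4i had the same peak of 167 in the SCD BAT list and 169 in the HFD BAT list. At equal numbers 3 of the 67 were brown-only (4.48%), below the 9.33% of all genes, and 3 were white-only (4.48%, against 0.612%). These white-only genes were Hist1h2ae, Hist1h2bf and Hist1h2bg, which had the same scores of 54.6 in the SCD WAT list and 164 in the HFD WAT list. Before the cut to equal numbers they had peaks in all 4 lists. Their scores were then 233, 195 and 233 in the SCD BAT list and 157, 150 and 157 in the HFD BAT list. White-only at equal numbers thus did not mean that BAT had no peak there. Ribosomal protein genes were brown-only in 30 of 135 cases (22.2%), among them Rps10 with 360 and 345, and subunits of oxidative phosphorylation in 14 of 84 (16.7%), among them Ndufa13 with 382 and 754 and Cox5a with 329 and 381. Of the 389 Zfp-named genes 78 were brown-only (20.1%), 0 white-only and 14 in all 4 lists (3.60%). These families thus lay within 4 percentage points of the 19.2% of all genes, except the histone genes.

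**Figure D5:**
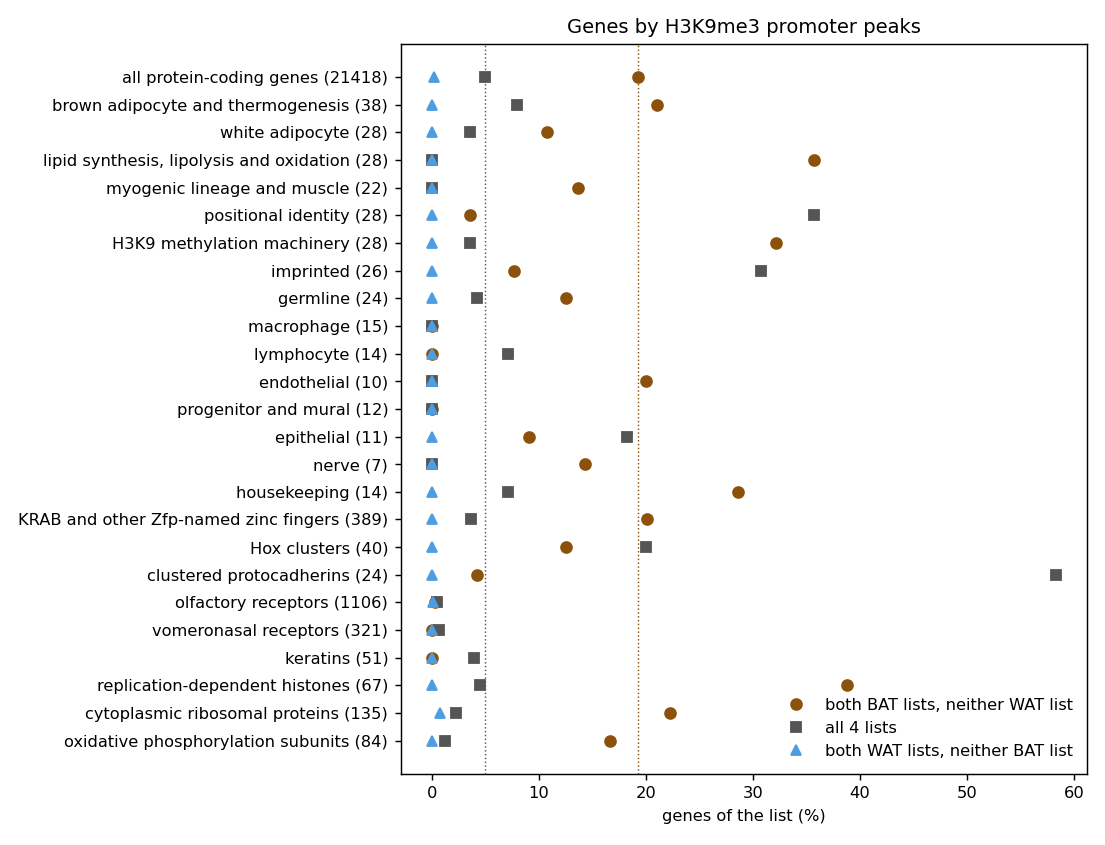
Share of the genes of each list (x axis, %) whose promoter had H3K9me3 peaks in both BAT lists and neither WAT list (circles), in all 4 lists (squares) or in both WAT lists and neither BAT list (triangles, drawn on top). The number of genes measured is in brackets, and dotted lines mark the shares of all genes, 19.2% and 4.91%. Clustered protocadherins reach 58.3% in all 4 lists, and the triangles stay below 1%.

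Genes of position and identity had H3K9me3 in all 4 lists far more often than genes in general. Of 28 genes of positional identity, 10 had a promoter peak in all 4 lists (35.7%, against 4.91%) and 1 was brown-only, and at equal numbers 6 did (21.4%, against 1.94%). Sim1 had 356, 394, 97.2 and 139 in the SCD BAT, HFD BAT, SCD WAT and HFD WAT lists, Pax9 168, 479, 92.2 and 157, Tbx1 416, 523, 82.6 and 79.8, Gata6 785, 760, 76.3 and 161, Pax1 323, 306, 74.3 and 108, and Hand2 540, 546, 71.6 and 115. These are transcription factor genes that pattern the embryo. Among genes that differ between fat depots, En1 had 725, 513 and 135 in the SCD BAT, HFD BAT and HFD WAT lists, Tbx15 187, 102 and 116 and Shox2 269, 329 and 71.4, with no SCD WAT peak. Myf5, the myogenic factor gene that marks precursors of brown fat, had no peak.

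Of 40 Hox genes, which set position along the body, 8 had a peak in all 4 lists (20%, against 4.91% of all genes). At equal numbers of peaks 3 did (7.5%, against 1.94%). Brown-only were 5 (12.5%, against 19.2%), and 1 at equal numbers (2.5%, against 9.33%). Hoxa5 had 332, 214, 95.2 and 87.7, Hoxd9 432, 537, 76.2 and 111, and Hoxd3 538, 609, 65.4 and 249. The brown-only ones were Hoxa13 with 441 and 217, Hoxc5 with 156 and 133, Hoxb2 with 125 and 157, Hoxc8 with 119 and 63.1, and Hoxb4 with 52.6 and 137. Hoxc9 and Hoxc10, posterior genes used in subcutaneous white fat, had a peak in the HFD BAT list alone, of 112 and 113. At a score of 50, Hoxc8, Hoxc9 and Hoxc10 thus had H3K9me3 peaks in BAT lists and in neither WAT list. Hoxc8 was not brown-only at equal numbers of peaks, and the HFD BAT list was the longest of the 4.

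Among the lists and families examined, clustered protocadherins had the largest share in all 4 lists, 14 of 24 genes (58.3%). At equal numbers of peaks 7 genes had a peak in all 4 lists (29.2%). Over all genes these shares were 4.91% and 1.94%. Pcdhgc5 had 651, 663, 229 and 204, and Pcdha11 505, 990, 126 and 221. Of 26 imprinted genes 8 had a peak in all 4 lists (30.8%, against 4.91%), and 2 at equal numbers (7.69%, against 1.94%). Grb10, which encodes an adaptor of the insulin receptor, had 624, 1036, 71.7 and 239, and Peg12 had 1056, 851, 81.8 and 101.1. Peg3 had 109, 287, 401 and 158, and it was white-only at equal numbers of peaks.

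Sensory receptor genes seldom had a promoter peak of any kind. A peak in at least 1 list was found in 6.33% of olfactory and 6.54% of vomeronasal receptor genes, against 65.4% of all genes. Of 1106 olfactory receptor genes 3 were brown-only (0.271%, against 19.2% of all genes). White-only was 1, Olfr672, with 58.6 and 54.3 (0.0904%, against 0.163%). A peak in all 4 lists was found in 5 (0.452%, against 4.91%). Of 321 vomeronasal receptor genes 2 had a peak in all 4 lists (0.623%). Vmn1r3 had 109, 241, 408 and 455, and Vmn1r48 had 2224, 2099, 54.6 and 694.

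Genes of other cells that fat can hold are read against the 19.2% of all genes that were brown-only and the 65.4% with a peak in any list. Of 15 macrophage genes, 14 lymphocyte genes and 12 genes of progenitor and mural cells, 0 were brown-only and 0 white-only, and 26.7%, 14.3% and 50% of them had a peak in any list. Pax5, a B-cell factor gene, had a peak in all 4 lists, with 408, 556, 55.3 and 165. Of 10 endothelial genes 2 were brown-only (20%), Kdr with 108 and 227 and Esam with 52.2 and 51.5. Of 22 genes of muscle and its lineage 3 were brown-only (13.6%), Actn3 with 120 and 202, Tnni2 with 63.0 and 54.9 and Acta1 with 54.8 and 333. Of 24 germline genes 3 were brown-only (12.5%), Tdrd1 with 254.5 and 165, Fkbp6 with 117 and 284 and Sycp3 with 87.7 and 318. Of 11 epithelial genes 1 was brown-only (9.09%), Epcam with 422 and 493, and Esrp1 and Krt8 had a peak in all 4 lists. Of 7 nerve genes 1 was brown-only (14.3%), Th, the enzyme of catecholamine synthesis, with 67.0 and 57.9. Of 51 keratin genes 0 were brown-only and 2 had a peak in all 4 lists. No gene of these lists was white-only, which is to be read against the 0.163% of all genes that were.

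Within each diet the tissues were also compared alone. On SCD, 22118 regions had a BAT peak without a WAT peak, 4494 the reverse, and 48.5% and 11.7% of them were at promoters. On HFD, 32867 had a BAT peak alone and 10455 a WAT peak alone, with 26.6% and 13.2% at promoters, and 17017 had both, of which 42.0% were at promoters. BAT-only regions were thus at promoters more often than WAT-only regions on either diet, and on HFD the regions with a peak in both tissues were at promoters more often than either.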

How the data were processed

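H3K9me3 peaks of 4 libraries (BAT and WAT, each on SCD and HFD) were analysed, with the H3K9me2 lists of the same tissues as a second readout. The authors assessed reads with FastQC, trimmed adaptors with Trim Galore, aligned to mm9 with Bowtie2 2.4.2, discarded multi-mapping reads and called peaks with MACS2 in each library. The deposited score has no stated unit and was taken as a p-value on a negative log10 scale, multiplied by 10, from its lowest values of 50 or 50.01, and 30 in the SCD WAT list, which was cut to the same minimum of 50. How the inputs entered the calling is not given in the sources used here. Depth is unknown.

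Peaks were joined and classed with Python 3.11.15 and NumPy 2.4.6, and bedtools 2.31.1 gave the same counts. The calls were also tested on simulated lists. Between 819 and 2455 peaks per list off the autosomes were left out. Start sites came from protein-coding genes of GENCODE vM1 on assembly NCBIM37, which is mm9. Repeated sequence was measured with words of 24 bases, sampled every 20 bp, since no repeat annotation was used here. Groups were taken from library labels. Named promoter regions are the 8 per class with the highest lowest score among the lists that define the class, with the 3 widest and the 3 highest outside promoters. Windows are the 2 of 1 Mb with the most regions, and up to 6 genes per list and direction were named beside key genes. The regions, lists and genes were chosen with earlier results of these data known. Symbol patterns define the families, and S6 kinases were taken out of the ribosomal pattern. Alternatives were a minimum score of 80, every deposited score, absence at any score, equal numbers of peaks, joining within 1 kb, cover of at least 50%, promoters of 1 kb, 1 start site per gene and each diet alone. The inputs and the authors' differential calls were not used.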

Additional observations from a re-analysis of the deposited data

Results flagged for a closer look

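The promoter share of H3K9me3 peaks moved in opposite directions with diet in the tissues. From SCD to HFD it was lower by 15.1 percentage points in BAT (47.0% to 31.9%, a change of -15.1) and higher by 9.94 points in WAT (21.4% to 31.3%). It was singled out because the direction differed between tissues, and the difference was not tested, since there was 1 library per tissue and diet. With 7531 peaks from each list, the share went from 59.9% to 62.6% in BAT and from 21.4% to 32.5% in WAT, so both were then higher on HFD.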

How the results depend on the processing

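Depth was unknown and limits every count of missing peaks. The promoter share was recomputed with other promoters, scores, numbers of peaks and joining and for each diet, and each time it was highest in brown-specific and lowest in white-specific regions, except that on HFD alone it was highest in shared regions. Where values moved beyond 1.5 times (counts) or the counting interval (shares, medians), the cause was not tested. With promoters of 1 kb the shares were 59.6%, 4.76% and 31.4% in brown-specific, white-specific and shared regions, and with 1 start site per gene 56.5% and 31.1% in the first and last. At a minimum score of 80 there were 164 white-specific and 820 shared regions, promoter shares of 71.1% (brown-specific) and 3.05% (white-specific), median widths of 1049, 1358 and 1453.5 bp, 4 white-only genes and 341 in all 4 lists, and H3K9me2 in 52.7%, 30.9%, 46.3% and 39.1% of brown-specific regions (SCD BAT, HFD BAT, SCD WAT, HFD WAT) and in 15.9% (SCD BAT) and 38.4% (SCD WAT) of white-specific ones. With every deposited score there were 1560 white-specific and 4298 shared regions, 102 white-only genes and 2352 in all 4 lists, a shared promoter share of 39.3%, and widths of 862.5 (white-specific) and 1306.5 bp (shared). With equal numbers of peaks there were 2157 brown-specific and 921 shared regions, promoter shares of 87.7% and 17.6% (brown-specific, white-specific), widths of 1382, 1218.5 and 1630 bp, 1998 brown-only, 131 white-only and 415 genes in all 4 lists, and H3K9me2 in 97.3%, 76.9%, 92.0% and 90.3% of brown-specific and 56.9%, 86.4%, 76.5% and 35.9% of white-specific regions. With equal numbers of H3K9me2 peaks as well, an alternative added after seeing the data, H3K9me2 was in 19.7%, 55.8% and 62.0% of brown-specific (HFD BAT, SCD WAT, HFD WAT) and 40.8%, 42.1% and 11.5% of white-specific regions, so the HFD BAT list no longer had the largest share there and the HFD WAT list still had the smallest. Joining within 1 kb gave a brown-specific promoter share of 62.4% and widths of 992.5, 1064 and 1474.5 bp. On SCD alone there were 22118 brown-specific and 4494 white-specific regions, promoter shares of 48.5% and 11.7%, widths of 916, 754 and 1144.5 bp, and 10164 brown-only and 287 white-only genes. On HFD alone there were 32867, 10455 and 17017 regions, promoter shares of 26.6%, 13.2% and 42.0%, widths of 656, 683 and 1058 bp, 604 white-only genes and 7363 in both tissues. The other 40 values moved less. No paired analysis was possible because the labels carry no replicate numbers and each group had 1 library, and the tissues were set side by side within each diet without a test.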

Other observations

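The regions of the HFD BAT list alone, the most frequent combination, were unlike the 3 classes. Of the 24035 such regions 14.2% lay at a promoter, the median width was 625 bp and the median GC content 43.6%, near the 41.9% of autosomal bases. The 8855 regions of the HFD WAT list alone were at promoters in 13.5%, with a GC content of 53.7% and a median of 3.23% of repeated words, against 90.9% for those of the HFD BAT list alone. The 871 regions with a peak in the SCD BAT and HFD WAT lists had 63.6%, and the 2595 of the SCD WAT list alone 10.5%. Regions found in a single BAT list were thus richer in repeated sequence than those found in a single WAT list, with 36.7% for the 2909 of the SCD BAT list alone.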
